A study of Mus musculus with 23 samples.

Results

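The 10 genes described here are core components and direct outputs of the circadian clock: Dbp, Tef, Hlf, Nr1d1, Nr1d2, Ciart, Per1, Per2, Per3 and Arntl. They were taken by symbol from the 22310 named genes of the deposited count table, and all 10 were among the 16209 genes tested. The list was chosen from earlier results of these data, in which Dbp passed the test in wild-type mice on PLX3397 against wild-type controls. Values of that comparison, and which genes passed in it, are therefore given as a description, and nothing is concluded from them.

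Bulk RNA of mouse brain (strain C57BL/6J) was sequenced. The mice were either wild type, written WT below, or bore the Csf1R-G793A substitution, which alters the receptor for colony-stimulating factor 1 that microglia need to survive. The study asked what 2 inhibitors of this receptor do to the brain transcriptome and whether the substitution prevents it. The 6 groups were WT on control chow (3 libraries), G793A on control chow (4), WT on PLX3397 at 290 mg/kg (4), G793A on PLX3397 at 290 mg/kg (4), WT on PLX5622 at 1200 mg/kg (4) and G793A on PLX5622 at 1200 mg/kg (4), each kept on the diet for 14 days. The labels give no brain region, sex, age, time of day of collection or light schedule, and they do not say whether the substitution was carried on both alleles or whether each library came from a separate mouse. The p-values therefore measure the spread between these samples.

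In the mammalian clock, ARNTL (BMAL1) pairs with CLOCK or NPAS2 and binds E-box elements to switch on Per, Cry, Nr1d and Dbp genes. PER and CRY proteins then repress that pair, NR1D1 and NR1D2 (REV-ERB alpha and beta) repress Arntl through ROR elements, and DBP, TEF and HLF act on D-box elements. In most mouse tissues Arntl transcript peaks at the opposite phase to Dbp, the Per genes and Nr1d1, so that a set of samples taken at different times shows Arntl low where the others are high.

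Promoter sequence was matched in RefSeq (GRCm38.p6) for 9 of the 10 genes, over windows from 250 bases before to 50 bases after each annotated start site. Per2 had no matched sequence, so its promoter was not searched. The stretches below are those that hold a clock element in Ciart and Per1, the matched genes whose group means differed most, and in Per3 and Arntl for comparison. Those of Tef, whose group means differed least, are not printed. Capitals mark the element: the E-box (CACGTG), the D-box (TTATGNAA) or the ROR element (GGTCA preceded by A, A, any base, T and any base), each searched on both strands. The E-box reads the same on both.

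Ciart, E-boxes, chr3:95882259-95882352, minus strand, positions -124 to -31 from the start site: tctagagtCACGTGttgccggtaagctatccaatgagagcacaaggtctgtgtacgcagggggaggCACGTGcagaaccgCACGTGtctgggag
Per1, E-box, chr11:69098775-69098796, plus strand, positions -174 to -153: cccaagtcCACGTGcagggatg
Per1, D-box, chr11:69098917-69098940, plus strand, positions -32 to -9: gcctggcaTTATGCAAcccgcctc
Per3, D-boxes, chr4:151044808-151044878, minus strand, positions -213 to -143: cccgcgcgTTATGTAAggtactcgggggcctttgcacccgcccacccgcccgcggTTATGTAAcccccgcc
Arntl, ROR element, chr7:113207528-113207557, plus strand, positions 18 to 47: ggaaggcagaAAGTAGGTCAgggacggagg

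An E-box was present in 7.15% of 32851 RefSeq promoter windows of the same length, and in 3 of the 9 matched clock genes (Ciart, Per1 and Tef). Ciart held 3 E-boxes, as 0.0883% of all windows did with at least 3. A D-box stood in 3.38% of windows and in 2 of the 9 genes (Per1 and Per3), and 0.161% of windows held at least 2 of them, as Per3 did. The ROR element stood in 0.606% of windows and in 1 of the 9 genes, Arntl. The windows of Dbp, Hlf, Nr1d1 and Nr1d2 held none of these elements. Arntl, Per1 and Tef have 2 windows each, so a count of genes and a share of windows are not on one footing. The other Arntl window held no ROR element, the other Per1 window held no E-box or D-box, and both Tef windows held an E-box. These matches describe the letters of the window and are not shown binding sites.

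Total counts per library ran from 26.3 M to 48.2 M. Levels are given as CPM, the usual per-library unit in which a gene's count is divided by the scaled library total. Csf1r, the targeted receptor, stood between 92.8 and 95.1 CPM in WT controls, between 17 and 28.9 CPM in WT mice on PLX3397, between 5.92 and 15.8 CPM in WT mice on PLX5622 and between 58.8 and 88.4 CPM in the 12 G793A libraries. In bulk tissue, fewer cells of a type and less RNA per cell cannot be told apart. The activity-dependent gene Npas4 was high in 4 libraries, namely WT PLX3397 replicate 1 (152 CPM), G793A PLX3397 replicates 2 (185 CPM) and 4 (214 CPM) and G793A PLX5622 replicate 2 (139 CPM), and stood between 3.24 and 26.7 CPM in the others. The cerebellar gene Cbln3 stood at 30.8 CPM in WT PLX5622 replicate 1 and at 220.5 CPM in G793A PLX5622 replicate 2, against 1.73 CPM or less in the other 21 libraries.

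**Figure D1:**
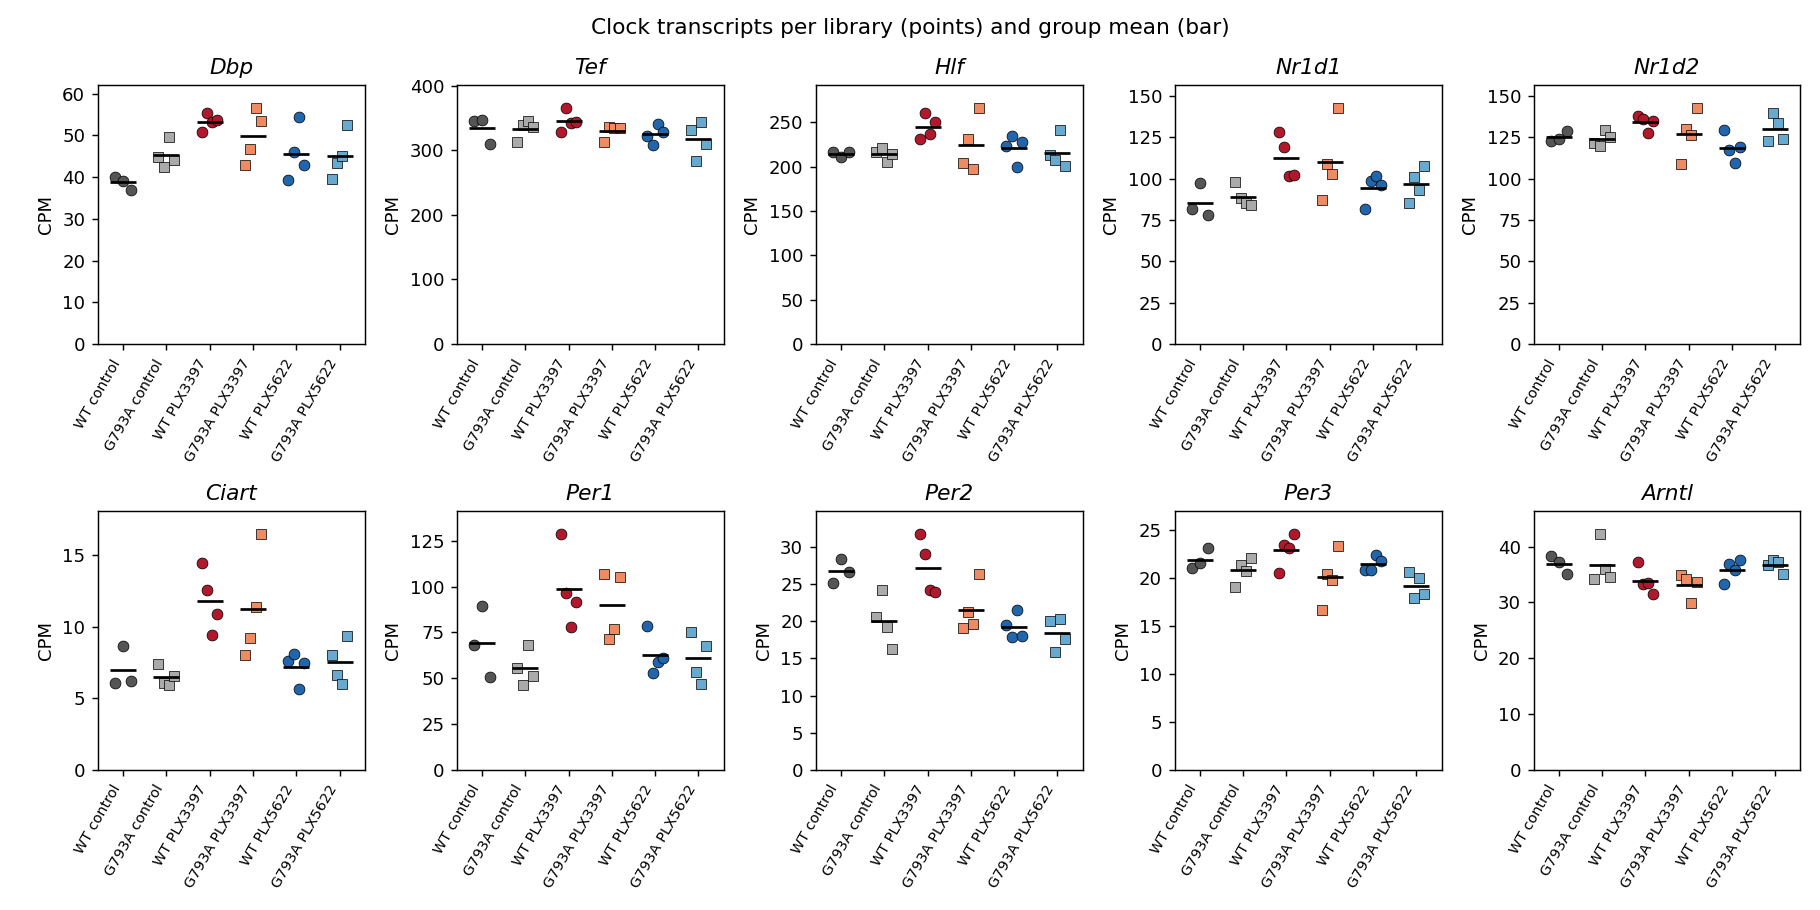
CPM (vertical axis, from 0) of the 10 clock transcripts in 23 libraries, by group (horizontal axis). Points are libraries, with circles for WT and squares for G793A, and bars are group means. Dbp, Nr1d1, Ciart and Per1 had their 2 highest group means in the PLX3397 groups, Per2 was high in WT controls and WT mice on PLX3397, and Arntl had its 2 lowest group means in the PLX3397 groups.

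Dbp encodes a D-box activator whose transcript is among the strongest rhythmic outputs of the clock. It stood at 40.1, 39.1 and 37.0 CPM in WT controls and at 50.7, 55.5, 53.2 and 53.8 CPM in WT mice on PLX3397. In G793A mice it stood at 44.7, 42.3, 49.7 and 44.2 CPM on control chow and at 43.0, 46.8, 56.5 and 53.5 CPM on PLX3397. With PLX5622 it stood at 39.3, 46.0, 54.5 and 42.8 CPM in WT mice and at 39.6, 43.5, 45.1 and 52.5 CPM in G793A mice. The WT controls were the lowest group and lay close together, and every library of WT PLX3397, G793A control and G793A PLX3397 lay above all 3 of them. The share of all genes with such a gap above WT controls was 4.94%, 2.71% and 3.51% in these 3 groups. The 2 PLX5622 groups each had a library inside the range of WT controls.

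The log2 fold change of Dbp in WT mice on PLX3397 against WT controls was 0.46 ± 0.10 (SE), a level 1.38 times that of controls. It was the 1 member with an adjusted p under 0.05 (edgeR, Benjamini-Hochberg over all genes tested, the threshold used throughout) in this comparison, in which 1.52% of all genes passed and 0.037% passed as higher. At an unadjusted p under 0.05 there were 5 members, all higher, beside 8.21% of all genes. Since this comparison chose the list, nothing is read from that count. In G793A mice the inhibitor's log2 fold change of Dbp against G793A controls was 0.14 ± 0.09 (adjusted p = 0.552). The difference between the 2 fold changes, G793A minus WT, was -0.32; it contains the WT fold change that chose the list, so it is a description and no test is read from it. Dbp in G793A controls was 0.22 ± 0.10 above WT controls (adjusted p = 0.418), and this value, like the other comparisons with WT controls, shares the same 3 libraries, which are also part of the comparison that chose the list.

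Dbp overlaps Sphk2, a sphingosine kinase gene on the opposite strand, over 539 of the 1837 bases of its longest transcript (GENCODE annotation of GRCm38). The libraries were stranded, but no source used here states whether the counting used strand, and Dbp's estimated counts were not whole numbers in 100% of libraries. The Dbp values are uncertain to that extent. Sphk2 itself had a log2 fold change of -0.05 ± 0.05 in WT mice on PLX3397 (adjusted p = 0.866), and in G793A mice, against their own controls, it was -0.01 ± 0.05 (adjusted p = 0.965).

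Tef and Hlf encode the other 2 members of Dbp's family of proline- and acidic-rich transcription factors. Tef ranged from 284 to 364 CPM over all libraries, and its highest and lowest group means differed 1.09-fold. Hlf ranged from 197 to 266 CPM, with means that differed 1.14-fold. In WT mice on PLX3397, Hlf stood at 231, 261, 236.5 and 250.5 CPM, above the 216, 211 and 217 CPM of WT controls, with a log2 difference of 0.19 ± 0.08. With PLX3397 in G793A mice, Hlf spread from 197 to 266 CPM around the G793A controls (205 to 221 CPM), and its log2 fold change was 0.07 ± 0.07 (adjusted p = 0.752). Tef had a log2 value of 0.05 ± 0.06 with PLX3397 in WT mice and of -0.02 ± 0.06 in G793A mice.

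Nr1d1 encodes REV-ERB alpha, the heme-binding repressor of Arntl. It stood at 81.5, 97.1 and 77.7 CPM in WT controls and at 128, 119, 101.5 and 102 CPM in WT mice on PLX3397, which do not overlap. In G793A mice it stood at 97.9, 88.2, 85.2 and 84.2 CPM on control chow and at 86.8, 109, 103 and 142 CPM on PLX3397. These groups overlap through replicate 1 of the inhibitor group, while the highest value of all libraries, 142 CPM, is its replicate 4. With PLX5622, Nr1d1 ranged from 81.5 to 102 CPM in WT mice and from 85.3 to 108 CPM in G793A mice.

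The log2 fold change of Nr1d1 with PLX3397 was 0.40 ± 0.13 in WT and 0.31 ± 0.12 in G793A mice (adjusted p = 0.376 in the latter). Nr1d1 shares 263 bases of exons with Thra, a thyroid hormone receptor gene on the opposite strand, and its counts were not whole in any library. Thra differed by 0.04 ± 0.06 and 0.00 ± 0.06 in the same comparisons (adjusted p = 0.926 and 0.997). Counts were also not whole for Per3 (100% of libraries) and Per1 (73.9%), which share no exonic bases with another gene. Tef and Arntl share 193 and 33 bases with genes on the opposite strand, and their counts were whole. What makes a count fractional was not tested. Nr1d2, which encodes REV-ERB beta, ranged from 109 to 142 CPM, with a log2 value of 0.10 ± 0.07 with PLX3397 in WT mice, and 0.03 ± 0.06 with it in G793A mice.

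Ciart encodes CHRONO, a repressor of the CLOCK and ARNTL pair, and its promoter window is the one above with 3 E-boxes. It stood at 6.09, 8.68 and 6.22 CPM in WT controls and at 7.41, 6.10, 5.94 and 6.57 CPM in G793A controls. On PLX3397 it stood at 14.4, 12.6, 9.40 and 10.9 CPM in WT mice and at 8.04, 9.21, 11.4 and 16.5 CPM in G793A mice. Within each genotype, every library on PLX3397 lay above every control library, as 4.94% of all genes did in WT and 1.92% in G793A animals. On PLX5622 it stood at 7.60, 8.07, 5.67 and 7.45 CPM in WT mice and at 8.03, 6.65, 6.00 and 9.38 CPM in G793A mice, which overlap the controls of their genotype.

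Ciart had the largest log2 fold change of the 10 genes with PLX3397, 0.76 ± 0.21 in WT mice and 0.78 ± 0.19 in G793A mice. The log2 value in G793A mice uses neither group that chose the list, but its SE and p rest on a spread estimated from all groups. It did not pass edgeR's test after adjustment over all genes (unadjusted p = 0.000503, adjusted p = 0.287). DESeq2 gave it an adjusted p of 0.0344. Without the libraries high in Npas4, which leaves 2 libraries of G793A PLX3397, the edgeR values in G793A mice were 0.58 for Ciart, 0.73 for Per1 and 0.09 for Nr1d1 (adjusted p = 0.743, 0.743 and 0.852). With PLX5622, Ciart's log2 values were 0.04 ± 0.21 in WT mice and 0.21 ± 0.19 in G793A mice (adjusted p = 0.989 and 0.627).

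Per1, Per2 and Per3 encode the period proteins, which repress the clock's activators; Per1 and Per2 are also induced by light and by cyclic AMP signalling, and Per1 by glucocorticoids. Per1 stood at 68.2, 89.5 and 50.7 CPM in WT controls and at 128.5, 96.4, 77.8 and 91.4 CPM in WT mice on PLX3397, with WT control replicate 2 inside the inhibitor range. In G793A mice it stood at 55.6, 46.5, 68.2 and 51.4 CPM on control chow and at 107, 71.6, 76.7 and 105 CPM on PLX3397, which do not overlap. On PLX5622, Per1 ranged from 53.0 to 78.3 CPM in WT mice and from 46.9 to 75.1 CPM in G793A mice. Its log2 fold change with PLX3397 was 0.51 ± 0.22 in WT and 0.70 ± 0.20 in G793A mice (adjusted p = 0.333 in the latter). With PLX5622 the values were -0.15 ± 0.22 in WT mice and 0.14 ± 0.21 in G793A mice (adjusted p = 0.952 and 0.784).

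Per2 followed another pattern. It stood at 25.1, 28.4 and 26.7 CPM in WT controls and at 31.7, 29.0, 24.3 and 23.9 CPM in WT mice on PLX3397, which overlap. In G793A mice it stood at 20.5, 24.2, 19.2 and 16.3 CPM on control chow, at 19.1, 21.2, 19.6 and 26.3 CPM on PLX3397 and at 20.1, 15.8, 20.3 and 17.7 CPM on PLX5622. In WT mice on PLX5622 it stood at 19.6, 17.8, 21.5 and 18 CPM. The 15.8 CPM of G793A PLX5622 is replicate 2, a library high in Cbln3 and Npas4. The WT controls lay above every library of WT PLX5622, G793A control and G793A PLX5622, and all but replicate 4 of G793A PLX3397. Beside this, 5.26%, 2.91% and 3.86% of all genes lay wholly below WT controls in the first 3 of these groups.

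Against WT controls, Per2 had a log2 value of -0.47 ± 0.13 in WT mice on PLX5622 (adjusted p = 0.0633), -0.41 ± 0.13 in G793A controls (adjusted p = 0.358), -0.31 ± 0.13 in G793A mice on PLX3397 (adjusted p = 0.567) and -0.53 ± 0.13 in G793A mice on PLX5622 (adjusted p = 0.522). These 4 values share the WT controls and none passed in edgeR. In WT mice on PLX5622, Per2 passed with DESeq2 (adjusted p = 0.0205) and with limma-voom (adjusted p = 0.0344). Within G793A mice, Per2 with PLX5622 differed from G793A controls by -0.12 ± 0.12 (adjusted p = 0.658). The difference between the PLX5622 fold changes, G793A minus WT, was 0.35 (95% interval -0.01 to 0.71, adjusted p = 0.67).

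Per3 ranged from 16.7 to 24.6 CPM, with the lowest library in G793A PLX3397 and the highest in WT PLX3397. In G793A mice on PLX5622 it stood at 20.7, 17.9, 19.9 and 18.3 CPM, below the 21.1, 21.5 and 23.1 CPM of WT controls, a log2 difference of -0.19 ± 0.09 (adjusted p = 0.712, with 3.86% of all genes not overlapping and lower). The 17.9 CPM is replicate 2, a library high in Cbln3 and Npas4. With each library left out in turn, the log2 difference ran from -0.23 to -0.15. Averaged over the 3 diets, the log2 difference between G793A and WT mice was -0.27 ± 0.07 for Per2 (adjusted p = 0.0575) and -0.14 ± 0.05 for Per3 (adjusted p = 0.157). In that average, which was added after seeing the data, 0 of the 10 genes and 1.39% of all genes passed. Per2 passed there with DESeq2 (adjusted p = 0.016) and limma-voom (adjusted p = 0.0456), and 2 of the 10 genes had an unadjusted p under 0.05, as 15.8% of all genes did.

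Arntl encodes the clock's positive factor BMAL1. It stood at 38.3, 37.3 and 35.1 CPM in WT controls and at 37.3, 33.3, 33.5 and 31.4 CPM in WT mice on PLX3397, which overlap through replicate 1 of the inhibitor group. In G793A mice it stood at 34.1, 42.2, 35.9 and 34.5 CPM on control chow and at 34.9, 34.1, 29.9 and 33.7 CPM on PLX3397. With PLX5622 it stood at 33.3, 36.9, 35.8 and 37.6 CPM in WT mice and at 36.8, 37.7, 37.3 and 35.0 CPM in G793A mice. The group means spanned 1.11-fold, from 33.2 CPM in G793A PLX3397 to 36.9 CPM in WT controls.

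In G793A mice on PLX3397 every library lay below every WT control, as in 4.11% of all genes. The log2 value of Arntl with PLX3397 was -0.12 ± 0.07 in WT and -0.15 ± 0.07 in G793A mice (adjusted p = 0.4 in the latter). With PLX5622 the values were -0.04 ± 0.07 for WT and 0.00 ± 0.07 for G793A mice (adjusted p = 0.958 and 0.994). Arntl was the 1 member with a negative value in WT mice on PLX3397, where 9 of 10 were positive beside 52.8% of all genes. With PLX3397 in G793A mice, 7 of 10 were positive beside 51% of all genes, and Arntl, Tef and Per3 were negative.

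**Figure D2:**
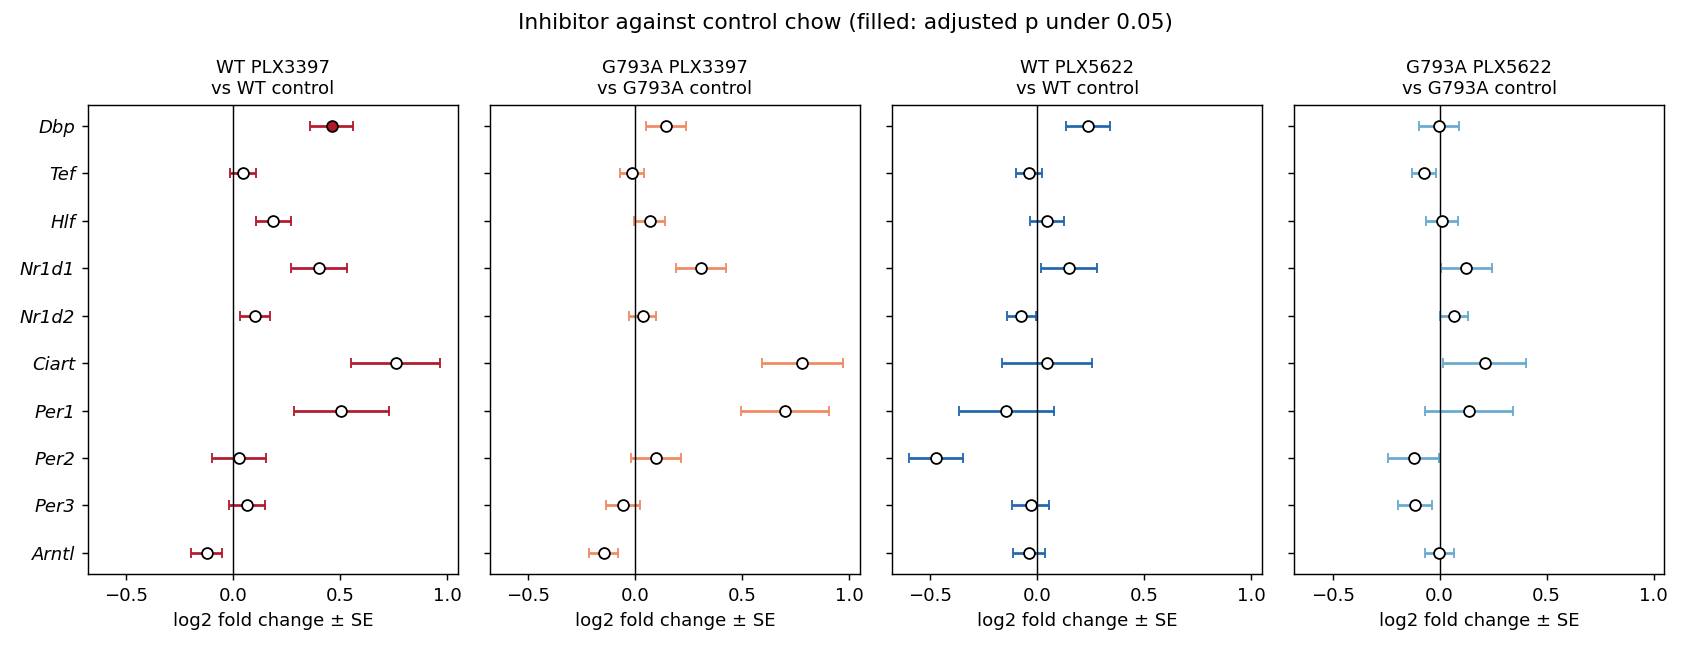
Log2 fold change (horizontal axis) of each clock transcript for an inhibitor against control chow of the same genotype, from edgeR. Bars are standard errors, and a filled point has an adjusted p under 0.05; only Dbp in WT mice on PLX3397 is filled. Ciart, Per1 and Nr1d1 lie to the right of 0 by more than their SE in both PLX3397 panels, Arntl lies to the left of 0 in both, and Per2 lies at -0.47 in WT mice on PLX5622.

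Read over all 10 genes, the comparison of G793A mice on PLX3397 with G793A controls is the one with this inhibitor that shares no library with the comparison that chose the list. Its p-values still rest on a spread per gene estimated from all groups, including those that chose the list. In this comparison, 0 of the 10 passed in edgeR, beside 0.00617% of all genes. At an unadjusted p under 0.05 there were 4, namely Ciart, Per1 and Nr1d1 with positive values and Arntl with a negative one, beside 11.7% of all genes. Ciart passed with DESeq2 and none passed with limma-voom. The libraries of Per1 and Ciart did not overlap between these groups, as in 1.92% of all genes with the inhibitor group higher. The corresponding count in WT mice on PLX3397 was 4 (Dbp, Hlf, Nr1d1 and Ciart), beside 4.94% of all genes.

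With both genotypes averaged, a comparison added after seeing the data, 4 of the 10 genes passed as higher on PLX3397, beside 2.01% of all genes passing and 0.376% passing as higher. They were Ciart (log2 0.77 ± 0.14, adjusted p = 0.00281), Dbp (0.30 ± 0.07, adjusted p = 0.0178), Nr1d1 (0.35 ± 0.09, adjusted p = 0.0336) and Per1 (0.60 ± 0.15, adjusted p = 0.0421). This average contains the WT libraries that chose the list, so it is not independent of that choice. At an unadjusted p under 0.05 there were 6, beside 16.5% of all genes: these 4, Hlf (0.13 ± 0.06, adjusted p = 0.244) and Arntl (-0.14 ± 0.05, adjusted p = 0.169). Without the 4 libraries high in Npas4, 1 gene passed, Ciart (0.61, adjusted p = 0.0144), and Dbp, Nr1d1 and Per1 had log2 values of 0.31, 0.21 and 0.54 (adjusted p = 0.0849, 0.285 and 0.179). Without WT control replicate 3, Ciart again was the 1 gene that passed. The share of all genes that passed without these libraries is not given, so these counts are a description.

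With PLX5622, 0 of the 10 genes passed in WT mice against WT controls in edgeR, beside 1.66% of all genes, and 2 had an unadjusted p under 0.05 (Dbp at 0.24 ± 0.10 and Per2 at -0.47 ± 0.13) beside 8.43%. In G793A mice on PLX5622 against G793A controls, 0 of the 10 passed in edgeR, DESeq2 or limma-voom, beside 0% of all genes in edgeR, and 0 had an unadjusted p under 0.05, beside 16.3% of all genes. In the average over genotypes 0 of the 10 passed in edgeR, beside 2.1% of all genes, and Per2 was the 1 gene with an unadjusted p under 0.05, beside 16.4%, at -0.30 ± 0.09 (adjusted p = 0.081, and 0.0356 with DESeq2).

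The 2 inhibitors, given at different doses in chow, are set side by side without a dose-matched comparison. In WT mice, and in the average over genotypes, this reuses the WT PLX3397 libraries that chose the list, so these values and counts are a description. In WT mice, the level with PLX5622 relative to PLX3397 had a log2 value of -0.72 ± 0.19 for Ciart, -0.65 ± 0.20 for Per1, -0.50 ± 0.12 for Per2, -0.25 ± 0.12 for Nr1d1, -0.22 ± 0.09 for Dbp and -0.18 ± 0.06 for Nr1d2. All 6 had an unadjusted p under 0.05, beside 4.1% of all genes in either direction and 2.39% with PLX5622 lower, and 0 passed after adjustment in edgeR, DESeq2 or limma-voom, beside 0% of all genes in edgeR. In G793A mice the values were -0.57 ± 0.19 for Ciart, -0.56 ± 0.20 for Per1 and 0.15 ± 0.07 for Arntl, the 3 genes with an unadjusted p under 0.05 beside 6.85% of all genes. None of the 10 passed after adjustment there in edgeR, DESeq2 or limma-voom, beside 0.00617% of all genes in edgeR. The libraries of Per2 and Ciart did not overlap between the 2 inhibitors in WT mice, as in 1.81% of all genes with PLX5622 lower, and those of Arntl did not in G793A mice, as in 2.01% with PLX5622 higher. Averaged over genotypes, 0 of the 10 passed in edgeR beside 0.00617% of all genes, and 6 had an unadjusted p under 0.05 beside 7.12%. In that average Ciart stood at -0.64 ± 0.14, Per1 at -0.61 ± 0.14 and Per2 at -0.36 ± 0.08 (adjusted p = 0.347 for each), and Ciart passed with DESeq2 (adjusted p = 0.00938).

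The remaining comparisons against WT controls and between genotypes gave no member that passed in edgeR. In G793A controls, 0 passed beside 0% of all genes, and Dbp and Per2 had an unadjusted p under 0.05 beside 11.1%. In G793A mice on PLX3397 against WT controls, 0 passed beside 0.00617%, and 5 had an unadjusted p under 0.05 (Dbp at 0.37, Nr1d1 at 0.37 and Ciart at 0.68, with Per2 at -0.31 and Arntl at -0.15) beside 7.24%. In G793A mice on PLX5622 against WT controls, 0 passed beside 0%, and 3 had an unadjusted p under 0.05 (Dbp at 0.22, Per2 at -0.53 and Per3 at -0.19) beside 6.76%. For the differences between genotypes in the response, 0 of the 10 passed for PLX3397 beside 0.555% of all genes, and 0 passed for PLX5622 beside 0.808%. At an unadjusted p under 0.05 there was 1 for PLX3397 (Dbp, whose WT value chose the list), beside 4.12%, and 0 for PLX5622, beside 7.44%. DESeq2 and limma-voom called none of the 10 in these 5 comparisons.

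In the test of any difference among the 6 groups, 2 of the 10 genes passed, Per2 (adjusted p = 0.0141) and Ciart (adjusted p = 0.0178), beside 1.81% of all genes, and 5 had an unadjusted p under 0.05, beside 16.3%. This test includes the groups that chose the list. The group means of Per2 fell into the order WT PLX3397 (27.2 ± 3.79 CPM, SD), WT control (26.7 ± 1.63), G793A PLX3397 (21.5 ± 3.29), G793A control (20 ± 3.26), WT PLX5622 (19.2 ± 1.68) and G793A PLX5622 (18.5 ± 2.15). All neighbours in that order overlapped in their libraries. WT control and G793A PLX3397 did so through replicate 4 of the latter alone, and their log2 difference was -0.31 ± 0.13 (edgeR adjusted p = 0.567). For Ciart, WT PLX3397 (11.8 ± 2.16 CPM) and G793A PLX3397 (11.3 ± 3.73) stood above the other 4 groups, whose means ran from 6.5 to 7.51 CPM. Per1 (adjusted p = 0.107), Dbp (0.12), Nr1d1 (0.231), Per3 (0.312), Hlf (0.432), Arntl (0.444), Nr1d2 (0.465) and Tef (0.69) did not pass. Without the libraries high in Npas4, Ciart's adjusted p in this test was 0.103 and Per2's was 0.018.

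The spread within groups also differed between members. The SD of log2 CPM within groups was 0.30 for Per1 and 0.29 for Ciart, larger than for 80% and 79.3% of all genes. It was 0.18 for Nr1d1 and Per2, 0.14 for Dbp, and between 0.08 and 0.12 for Tef, Nr1d2, Arntl, Hlf and Per3, beside a median of 0.13 over all genes. Over all 23 libraries, Ciart spanned 2.91-fold and Per1 2.76-fold from the lowest to the highest, against 1.41-fold for Arntl and 1.28-fold for Tef.

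The genes that peak opposite to Arntl were compared with it library by library. Over the 23 libraries, Pearson's r with Arntl, on log2 CPM, was -0.52 for Dbp (Spearman's rho -0.54), -0.49 for Ciart (rho -0.52), -0.38 for Per1 (rho -0.43), -0.25 for Nr1d1 (rho -0.34), -0.24 for Nr1d2 and 0.03 for Per2. Tef, Hlf and Per3 lay between -0.12 and -0.17. For Dbp and Ciart, 0.296% and 0.506% of all genes had a lower r, and the median over all genes was 0.00. The 23 libraries include those that chose the list, so these ranks are not independent of that choice. Without the 2 libraries farthest from the Arntl median (G793A control replicate 2 and G793A PLX3397 replicate 3), r was -0.44 for Dbp, -0.42 for Hlf, -0.41 for Ciart, -0.38 for Per3, -0.29 for Per1, -0.21 for Tef and Nr1d2, -0.20 for Nr1d1 and -0.13 for Per2. The order of the genes by r thus differed with and without those 2 libraries. These are descriptions of libraries that share their scaling and that fall into 6 groups, and no p is given for them.

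Inside groups the relation was weaker for Dbp, Ciart and Per1, but not for every member. On deviations from group means, r with Arntl was -0.30 for Dbp, -0.09 for Ciart, 0.06 for Per1, 0.19 for Nr1d1 and 0.42 for Per2 (rho 0.24). It was -0.18 for Per3, -0.16 for Nr1d2, 0.02 for Tef and 0.16 for Hlf. On this scale 11% and 35.9% of all genes had a lower r than Dbp and Ciart. When Arntl level was added to the group terms of the edgeR model, 0 of the other 9 genes passed, beside 0% of all genes, and 0 passed with DESeq2 or limma-voom. Per2 had an unadjusted p under 0.05, beside 5.28% of all genes, with a coefficient of 0.83 ± 0.39 log2 units per log2 unit of Arntl (adjusted p = 0.898), a positive value. For Dbp the coefficient was -0.47 (95% interval -1.15 to 0.21, adjusted p = 0.922).

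**Figure D3:**
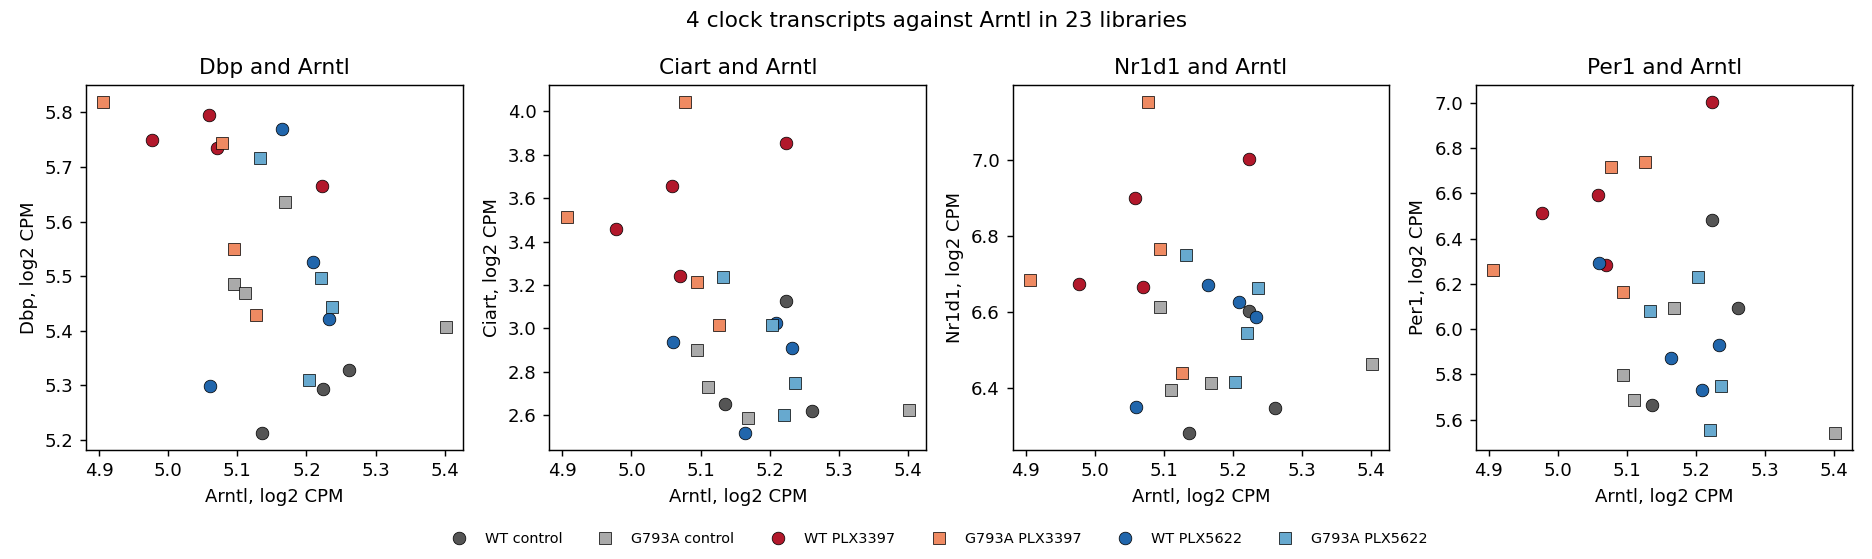
Log2 CPM of Dbp, Ciart, Nr1d1 and Per1 (vertical axes) against log2 CPM of Arntl (horizontal axis) in 23 libraries, coloured by group. For Dbp and Ciart, r was -0.52 and -0.49 over all libraries but -0.30 and -0.09 on deviations from group means.

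Coefficients among the members are given as a description over 23 libraries that share scaling. On deviations from group means, r was 0.69 between Nr1d1 and Ciart, 0.51 between Per1 and Ciart and 0.50 between Dbp and Nr1d1. Other high values were those of Hlf with Nr1d2 (0.55), Hlf with Per3 (0.55) and Tef with Per3 (0.52). Dbp and Per1 had an r of -0.10 on the same scale and 0.35 over all libraries. The link between Nr1d1 and Ciart is also visible in G793A PLX3397, where replicate 4 was the highest of its group for both genes and replicate 1 the lowest.

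**Figure D4:**
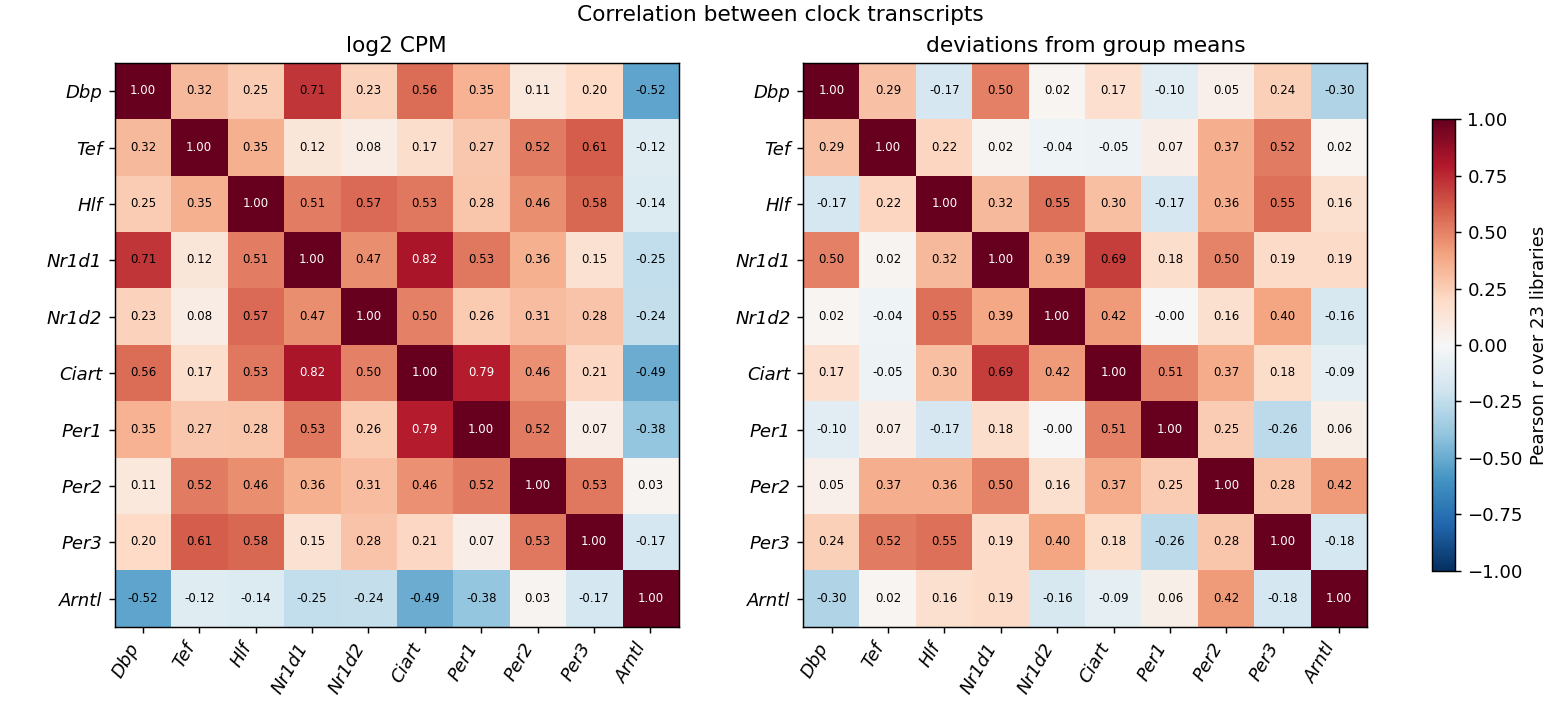
Pearson r between each pair of the 10 clock transcripts over 23 libraries, on log2 CPM (left) and on deviations from group means (right); red is positive and blue negative. The pair of Nr1d1 and Ciart has the highest r on both panels, 0.82 and 0.69, and Arntl is negative with 8 of 9 genes on the left and with 4 of 9 on the right.

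A wider list of 24 clock genes, all tested, was read beside the members. In WT mice on PLX3397, 1 of the 24 passed beside 1.52% of all genes, Usp2, which encodes a clock-controlled deubiquitinase (log2 0.33 ± 0.08, adjusted p = 0.0344). Usp2 was also known from the earlier results, and it lost this call in 11 of 36 alternative settings. It was the 1 of 24 that passed in the averages over genotypes, at 0.23 ± 0.06 for PLX3397 (adjusted p = 0.0241) and 0.22 ± 0.06 for PLX5622 (adjusted p = 0.0384), beside 2.01% and 2.1% of all genes. These calls were lost in 9 and 15 of 36 alternative settings. The median log2 value of the 24 genes was 0.03 for PLX3397 and 0.02 for PLX5622 in these averages, beside 0.00 for all genes tested. In edgeR, 0 of the 24 passed in G793A mice on PLX3397 or PLX5622 against G793A controls, beside 0.00617% and 0% of all genes, with 5 and 4 at an unadjusted p under 0.05, beside 11.7% and 16.3% of all genes. Usp2 stood at 0.13 ± 0.07 with PLX3397 (adjusted p = 0.491).

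Of the core genes in that list, Clock and Npas2, which encode the partners of ARNTL, had log2 values of -0.02 ± 0.04 and -0.01 ± 0.07 in the PLX3397 average (adjusted p = 0.835 and 0.956). Cry1, a cryptochrome repressor that peaks late, had -0.14 ± 0.07 (adjusted p = 0.284), and Cry2 had 0.12 ± 0.04 (adjusted p = 0.147). Bhlhe40 and Bhlhe41, repressors that compete for E-boxes, had 0.29 ± 0.10 and 0.20 ± 0.07 (adjusted p = 0.139 and 0.169), and Nfil3, the D-box repressor, had 0.33 ± 0.13 (adjusted p = 0.218). Rora and Rorb, whose products activate Arntl, had 0.02 ± 0.08 and 0.12 ± 0.09 (adjusted p = 0.913 and 0.512). Cry2 was close to Per2 from library to library, with r of 0.80 over all libraries and 0.83 on deviations from group means.

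Other gene lists were read beside the members, and their part in the clock values was not tested. Of 10 glucocorticoid-induced genes, 2 passed as higher in the PLX3397 average, in which 0.376% of all genes passed as higher, namely Sgk1 (1.08 ± 0.26, adjusted p = 0.032) and Ddit4 (0.58 ± 0.14, adjusted p = 0.0308). The summed level of that list ran from 271.5 to 301.1 CPM in WT controls, 264.6 to 328 CPM in G793A controls, 304.7 to 484.1 CPM in WT PLX3397 and 329 to 572.8 CPM in G793A PLX3397. It ran from 257.8 to 450.3 CPM in WT PLX5622 and 281.7 to 360.5 CPM in G793A PLX5622. Per1 and Fkbp5, a glucocorticoid target, had r of 0.69 on deviations from group means. Fkbp5 itself stood at 0.10 ± 0.05 in the PLX3397 average (adjusted p = 0.287).

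Of 12 immediate early genes, which neurons switch on with activity, 0 passed in the PLX3397 average in edgeR and 10 had an unadjusted p under 0.05, all with positive values, beside 2.01% and 16.5% of all genes. The median of the 12 was 0.90, beside 0.00 for all genes. Their summed level ran from 576.6 to 1202 CPM in WT controls, 561 to 1098 CPM in G793A controls, 952.3 to 2200 CPM in WT PLX3397 and 791.9 to 2731 CPM in G793A PLX3397. It ran from 366 to 875.5 CPM in WT PLX5622 and 509.9 to 1189 CPM in G793A PLX5622. On deviations from group means, r with Npas4 was 0.70 for Nr1d1, 0.54 for Nr1d2, 0.40 for Ciart, 0.33 for Arntl and 0.31 for Per2. It was 0.24 for Hlf, 0.11 for Per3, 0.06 for Per1, 0.03 for Dbp and -0.29 for Tef. Of 10 microglial genes, 9 passed as lower with each inhibitor in WT mice, where 1.52% (PLX3397) and 1.66% (PLX5622) of all genes passed. Of 8 temperature-responsive genes, 0 passed in the PLX3397 average in edgeR and 3 had an unadjusted p under 0.05, again beside 2.01% and 16.5% of all genes. Hypothalamic neuropeptide transcripts summed to between 31.4 and 149 CPM per library, and of the 5 tested 0 passed in that average and 0 had an unadjusted p under 0.05.

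**Figure D5:**
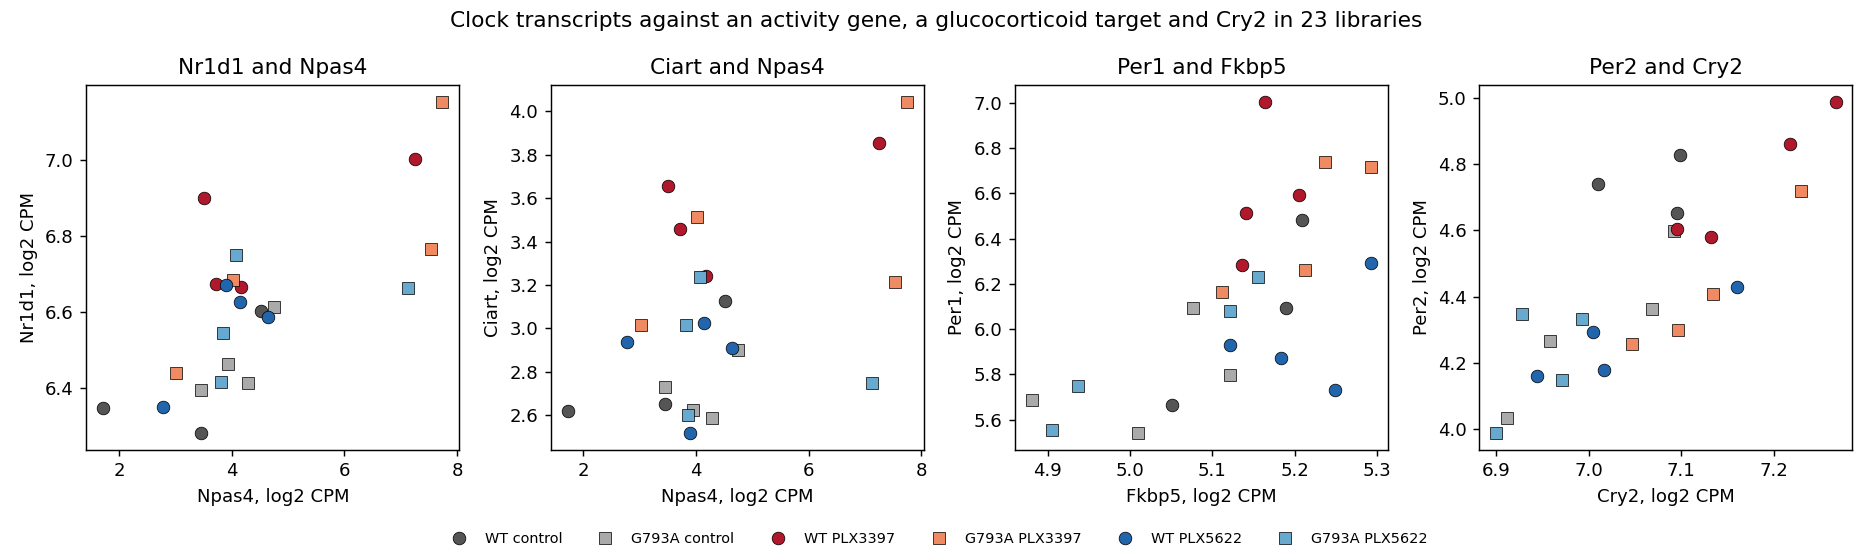
Log2 CPM of clock transcripts (vertical axes) against Npas4, Fkbp5 or Cry2 (horizontal axes) in 23 libraries, coloured by group. The 4 libraries at the right of the Npas4 panels are those high in Npas4, and 2 of them, WT PLX3397 replicate 1 and G793A PLX3397 replicate 4, are the 2 highest for Nr1d1 and for Ciart. Per2 and Cry2 have the closest relation of the 4 panels, with r of 0.80.

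The genes outside all lists whose deviations from group means were most like those of Dbp, of 13853 ranked, were Nipsnap3b (r = 0.77), Cpsf4 (0.77), Copz2 (0.76), Sp110 (0.74) and Dusp23 (0.74). The genes most like Arntl were Igsf9b (0.74), Arhgap10 (0.74), Pcdhga12 (0.70), Ece1 (0.70) and Pmaip1 (0.70). These are the highest of many coefficients over the same 23 libraries and are given as a description.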

How the data were processed

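Brain RNA of 23 libraries in 6 groups was analysed. Per the submitters' processing notes, the authors used FastQC 0.11.9, kallisto 0.46.1, DESeq2 1.26.0 and GRCm39; how transcripts were summed to genes is not stated by any source used here. The authors' deposited count table has expected counts (estimated counts per symbol, 45.3% not whole); 1 blank-named entry, 0.00829 to 0.0151% of a library, was left out. A deposited table of variance-stabilised log2 values served as an alternative only.

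Counts were rounded and fitted in R 4.3.3 with edgeR 4.0.16: TMM, filterByExpr (minimum count 10, total 15), one robust quasi-likelihood model with a term per group, two-sided, Benjamini-Hochberg over 16209 genes, threshold 0.05. SE is the log2 fold change over the root of F, and intervals are 95%. CPM uses TMM-scaled totals, and log2 CPM a prior count of 2. The test was tested on simulated counts. No library duplicated another (chi-square per degree of freedom at least 6.05 over 253 pairs). Overlaps between genes and transcript lengths came from GENCODE for GRCm38, by symbol.

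The members and lists were chosen with earlier results of these data known. Named genes are the members, core clock genes, list genes that passed, Csf1r and the 5 genes most like Dbp and Arntl; Sphk2 and Thra were added after their overlaps were seen, and Npas4, Fkbp5 and Cbln3 were named for their levels. Alternatives were RLE scaling, other filters, DESeq2 1.42.0, limma 3.58.1 (voom and variance-stabilised values), a non-robust fit, a replicate block, the compared groups alone, a length trend removed, and libraries left out.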

Additional observations from a re-analysis of the deposited data

Results flagged for a closer look

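Tef in G793A PLX3397 replicate 1 stood at 312 CPM, apart from the other 3 libraries of its group, the nearest of which stood at 334 CPM; the gap was 0.954 of the group's range. The group's whole range was narrow beside that of Tef over all libraries, 284 to 364 CPM. It was 1 of 50 pairs of a gene and a group of 4 libraries examined, and chance alone marks about 1 in 20.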

How the results depend on the processing

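No called value of a clock member or of Usp2 changed sign under any alternative run; Sgk1, Ddit4 and the microglial genes were not rerun. As a description, since this comparison chose the list, Dbp in WT mice on PLX3397 kept a log2 value between 0.36 and 0.52 over 36 alternatives, with an adjusted p between 0.000794 and 0.109. It missed the threshold without WT control replicate 2 (0.0526), without WT control replicate 3 (0.109) and without the 6 libraries whose column name carries a number of 500 or more (0.0604). Those 6 were replicates 3 and 4 of WT PLX3397, of WT PLX5622 and of G793A PLX5622. None was on control chow, so the number is partly confounded with diet. Ciart in the PLX3397 average passed in all 36 alternatives (adjusted p at most 0.0158), while Dbp lost its call in 3, Nr1d1 in 11 and Per1 in 18. As that average holds the WT libraries that chose the list and was added after seeing the data, these counts are a description too.

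Counts of members that passed moved by over 1.5 times as follows. The share of all genes that passed is not given for the alternative settings, so no count under them, here or above, is read as a result about the members. With DESeq2 they were 2 in WT PLX3397, 1 in WT PLX5622, 1 in G793A PLX3397 against G793A controls, 1 each in the PLX5622 average, the average of PLX5622 against PLX3397 and the average of G793A against WT, and 4 for any difference among the 6 groups. With limma-voom they were 1 in WT PLX5622 and 1 in G793A against WT. With only the groups compared they were 1 in WT PLX5622 and 2 in the PLX3397 average. Without the libraries high in Npas4 they were 1 in WT PLX5622, 1 in the PLX3397 average, 2 in G793A against WT (Per2 and Per3) and 1 among the 6 groups. Without libraries of column number 500 or more they were 0 in WT PLX3397, 2 in the PLX3397 average and 0 among the 6 groups; the labels do not say what the number means. Smaller moves were 3 among the 6 groups with a non-robust fit or variance-stabilised values, which add Per1 (0.0429 and 0.0369), and 3 in the PLX3397 average with no filter, which loses Per1 (0.0616), or on variance-stabilised values, which loses Dbp (0.0555). The cause of these shifts was not tested.

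Leaving out each library in turn gave 0 to 2 members in WT PLX3397, 0 to 1 in WT PLX5622, 0 to 1 in G793A controls, 1 to 4 in the PLX3397 average, 0 to 1 in the PLX5622 average, 0 to 1 in G793A against WT and 1 to 3 among the 6 groups. In the 6-group test Ciart missed the threshold without WT PLX3397 replicate 1 (0.0562) or replicate 2 (0.0554). Per2 in G793A controls passed without G793A control replicate 2 (0.04).

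With the replicate number as a block, 1 member passed among the 6 groups, Ciart, and Per2 had an adjusted p of 0.0517; no other count of members changed. The labels do not say whether equal numbers pair libraries. Deviations from group means correlated with a median r of -0.0174 across 55 pairs that share a number, beside 0.00108 across 165 that do not. No pairing is visible in these medians, which cannot exclude one.

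Ciart, with 174 to 472 counts in a library, is the shallowest member. Of 79 member values with an unadjusted p of 0.05 or more, 47 changed sign under some alternative, so their directions are not resolved. The values with the other sign were at most 0.21 in size on the log2 scale.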
